A study of Felis catus with 77 samples.

Results

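Feline fibrosarcoma (FSA) tumors of cluster C3 were compared with those of cluster C1. Both clusters are groups of tumors that the study drew on these same expression values, and their members were chosen by case number, cats 7, 10, 27, 28 and 30 for C3 and cats 5, 6, 8, 9, 18 to 26, 29 and 31 to 34 for C1. This gave 5 C3 and 18 C1 tumor (T) libraries, 23 of the 77 libraries in the series, beside 7 tumors of a further cluster, C2. The text of the study counts fewer tumors in C1 than these case numbers give, and which tumor it leaves out is not known here. With each C1 tumor left out in turn, the counts of completely separated genes given below ranged from 131 to 148 in the higher and from 2 to 4 in the lower direction. Since the clusters rest on the tumor values, differences between the tumors are given as sizes without p-values, and tests were run only in the matched normal tissue (NT) of the same cats. The study calls C3 inflammatory, C1 fibroblastic and C2 neuronal-like. These names were not checked against marker genes, because the deposited tables give Ensembl identifiers and the reference table used here matched 0 of them.

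FSA is a malignant tumor of mesenchymal origin whose spindle-shaped cells resemble fibroblasts and lay down collagen, and in cats it grows invasively in the skin and the tissue below it, often at sites of earlier injection. Such tumors hold vessels, matrix and infiltrating leukocytes beside the neoplastic cells, and a sample of tumor tissue contains RNA of all of them. An expression subtype can therefore differ in its tumor cells, in the cells around them or in both. Fewer cells of a type and less RNA per cell cannot be told apart in these data.

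All tissue came from cats treated as patients, was formalin-fixed and paraffin-embedded (FFPE), and was cut out by laser-capture microdissection (LCM) from areas chosen on the section. No experimental treatment was applied, and by the vaccination history and the sites of the tumors, whether any of them arose after an injection is unknown. The C3 cats were all European Shorthair (ESH), 3 female and 2 male, 5 to 17 years old with a median of 12. The C1 cats were 15 ESH, 2 Maine Coon and 1 Persian mix, 14 female and 4 male, 8 to 17 years old with a median of 12.5. The clinical outcome was classed as highly aggressive (HA) in 2 C3 and 3 C1 cats and low-aggressive (LA) in 1 C3 and 3 C1 cats. NT lay beside the tumor, so no tissue of tumor-free cats enters the comparison. C3 cats gave 7 NT libraries, adipose tissue (AT) of cats 10, 27 and 28, connective tissue (CT) of cat 30 and skeletal muscle (SM) of cats 7, 10 and 30. C1 cats gave 29 NT libraries, 8 AT, 7 CT and 14 SM.

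The total counts were similar in the tumors of both clusters, 6655671 to 10770305 in C3 and 5081459 to 14585035 in C1, with medians of 10502208 and 10181688. AT and CT libraries of these cats held 863878 to 7287267 counts. SM libraries held 3652755 to 19099337 counts except that of C3 cat 7, which held 1043709. The tissue was checked with 100 genes per tissue that were most restricted to AT, CT or SM in the C1 cats. Levels are given as CPM, counts per 1e6 counts of a library size adjusted by trimmed mean of M values (TMM) normalization. The AT library of C1 cat 5 carries a tumor label, but its AT-restricted genes averaged 5.48 in log2 CPM. This was within the 4.27 to 5.86 of the other AT libraries of these cats. It was above the highest tumor of C3 or C1 at 1.32 and of C2 at 3.07. SM-restricted genes stood high in the AT library of C1 cat 6, at 8.56 log2 CPM, where the next C1 AT library had 1.63. They were also high in the C1 tumors of cats 22, 5 and 20, at 3.48, 2.83 and 2.25.

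Between C3 and C1 tumors the genes that separated the clusters completely were nearly all higher in C3. Of 14338 genes with enough counts, 131 (0.914%) had a log2(FC) over 1 and a CPM in each of the 5 C3 tumors above that in each of the 18 C1 tumors. They are called C3-high genes below. Only 2 genes (0.0139%) had a log2(FC) under -1 and lay lower in each C3 tumor than in each C1 tumor, and these are called C3-low. Their number was larger with single C3 tumors left out, to 13 without cat 27, 8 without cat 7 and 6 without cat 10, and was 82 among female cats alone, where fewer tumors have to separate. In all, 1201 genes (8.38%) had a log2(FC) over 1 and 1732 (12.1%) under -1, so that the clusters overlapped in 1070 and 1730 of them. Beyond a log2(FC) of 2, 429 genes were higher and 619 were lower in C3. The C3-high genes thus made up 10.9% of all genes over 1, and the C3-low genes 0.115% of those under -1. Without TMM normalization the genes over 1 outnumbered those under -1, 1523 against 1433, and the median log2(FC) of all genes moved from -0.11 to 0.07.

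**Figure D1:**
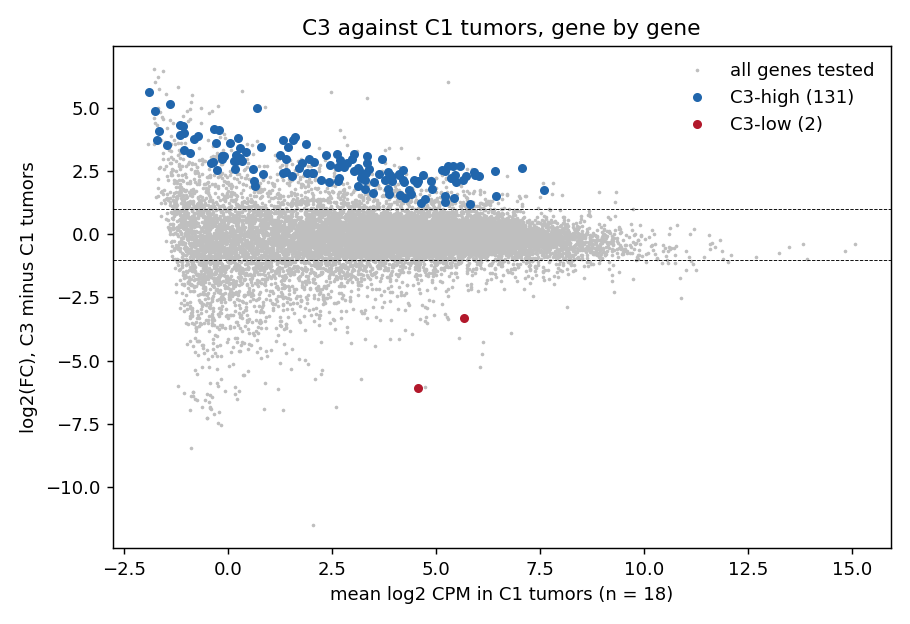
Log2(FC) between C3 (n = 5) and C1 (n = 18) tumors for each gene against its mean log2 CPM in the C1 tumors, with dashed lines at a log2(FC) of 1 and -1. The 131 C3-high genes (blue) extend over the range of expression levels, while the 2 C3-low genes (red) stand alone among many grey genes of similar log2(FC) whose tumors overlapped between the clusters.

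How far the tumors overlapped differed between the directions. Among the 1201 genes over 1, 129 had 4 of the 5 C3 tumors above every C1 tumor, 215 had 3, 258 had 2, 307 had 1 and 161 had none. Among the 1732 genes under -1, only 16 had 4 C3 tumors below every C1 tumor, 79 had 3, 151 had 2, 350 had 1 and 1134 had none. A single C1 tumor overlapped the C3 tumors in 105 genes over 1 and in 9 genes under -1, and the median number of overlapping C1 tumors was 5 and 10. The genes under -1 had medians of 12 counts in a C3 tumor and 32 in a C1 tumor, where the genes over 1 had 147 and 30, so their levels in C1 were alike. The genes under -1 varied more among C1 tumors, with a median SD of 1.74 on the log2 scale against 1.34 for the genes over 1 and 0.86 for all genes. The part of count level and of this spread in the unequal separation was not tested.

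The C3-high genes differed by a median log2(FC) of 2.56 between the clusters, 5.9-fold, with a middle 50% of 2.15 to 3.12 and a range of 1.18 to 5.64. The log2(FC) exceeded 2 in 112 of them and 4 in 10. The distance between the lowest C3 and the highest C1 tumor, the margin on which the selection rests, had a median of 0.47 on the log2 scale and reached 2.27. It was over 1 for 18 genes and under 0.1 for 16, so the last would join or leave the list with a small change in 1 tumor. In the C3 tumors these genes were well covered, with a median of 479 counts per tumor and at least 10 counts in every C3 tumor for all 131. In the C1 tumors the median was 60 counts, and 45 of the genes had no count in at least 1 C1 tumor. At least 10 counts in every tumor of both clusters were found for 66.

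As a share of all counts, the C3-high genes took 1.19% to 1.97% of each C3 tumor library with a median of 1.28%. In C1 tumors they took 0.0837% to 0.404%, with a median of 0.263%. Their spread was smaller within C3, with a median SD of 0.55 over the C3 tumors and 1.14 over the C1 tumors, where all genes had 0.68 and 0.86. All genes over 1 had a median SD of 0.98 over the C3 and 1.34 over the C1 tumors, and the demand for separation favors small spreads in both clusters.

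The mean log2 CPM over the 131 genes summarizes each library. It was 5.09 in the tumor of cat 7, 5.10 in cat 10, 5.04 in cat 27, 5.22 in cat 28 and 5.54 in cat 30, which gives 5.20 ± 0.20 (SD, n = 5). The C1 tumors ranged from 1.27 in cat 29 to 3.20 in cat 34 with a median of 2.53, or 2.41 ± 0.56 (SD, n = 18). The C3 tumors were therefore close to each other and far from C1, as the selection of the genes requires, and C1 tumors extended over a wider range. The tumor of cat 30 was the highest of the 5 C3 tumors for 78 of the 131 genes, followed by cat 7 for 19, cat 28 for 17, cat 27 for 9 and cat 10 for 8. The lowest C3 tumor was that of cat 7 for 42 genes and that of cat 27 for 38. Among C1 tumors, that of cat 29 was lowest for 40 genes and that of cat 8 for 22, while the highest value belonged to cat 34 for 19 genes and to cats 22 and 23 for 16 each.

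**Figure D2:**
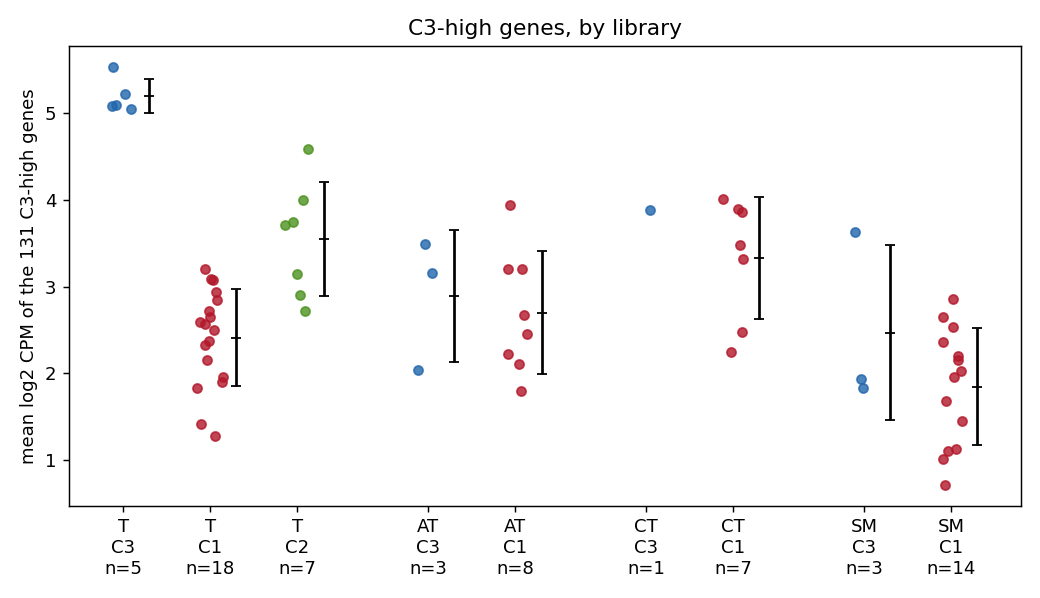
Mean log2 CPM of the 131 C3-high genes (vertical axis) in each library, by tissue (T, AT, CT, SM) and cluster of the cat (C3 blue, C1 red, C2 green). Points are libraries and bars show the mean ± SD. All C3 tumors lie at or above 5.04 and all C1 tumors at or below 3.20, while among the normal tissues of the C3 cats only the SM library of cat 30, at 3.63, exceeds the C1 libraries of its tissue. C2 is shown for T only.

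Single C3 tumors contributed unequally to the differences. Of the genes over 1, the tumor of cat 30 exceeded every C1 tumor for 692, that of cat 28 for 629, cat 27 for 502, cat 10 for 441 and cat 7 for 375. In 122 genes the tumor of cat 30 was the sole C3 tumor above all C1 tumors, compared with 35 to 56 for each of the other C3 tumors. Where 4 C3 tumors lay above C1, the one that did not was cat 7 for 58 genes, cat 27 for 23 and each of cats 10, 28 and 30 for 16. The number of C3-high genes was accordingly 191 without cat 7, the highest of all counts with 1 tumor left out. The tumor of cat 7 had the fewest counts in C3 and the fewest genes with a count, 13959 against 14897 to 15070 in the other C3 tumors. The part of its depth in the count was not tested. In the lower direction the tumor of cat 10 lay below every C1 tumor for 304 genes and was the sole C3 tumor to do so for 142, more than any other C3 tumor.

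Pearson's correlation of log2 CPM between tumors across genes, where genes are not independent replicates, had a median of 0.84 over the 10 pairs of C3 tumors (0.82 to 0.90), 0.83 over the 153 pairs of C1 tumors (0.70 to 0.89) and 0.81 over the 90 pairs between the clusters (0.70 to 0.87). These ranges overlapped widely. Such correlations mainly reflect differences in level between genes.

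By the rule for identifiers, the C3-high genes with the largest log2(FC) among those with at least 10 counts in every tumor were ENSFCAG00000041878 and ENSFCAG00000004726. ENSFCAG00000041878 was at 54.8 CPM in the tumor of cat 7, 26.7 in cat 10, 39.3 in cat 27, 52.7 in cat 28 and 89.8 in cat 30. In C1 tumors it was lowest at 1.31 CPM, with a median of 5.50 and a highest value of 14.4. The lowest C3 tumor, cat 10, was thus above the highest C1 tumor, and the log2(FC) was 3.16 (SE 0.36). In AT of the C3 cats the gene had 2.43, 1.08 and 9.93 CPM, within the 0 to 14.8 of C1 AT, and the difference of -0.34 (SE 1.12) had an adjusted p-value of 1 in edgeR. In SM it had 0 CPM in cat 7, 1.69 in cat 10 and 20.5 in cat 30 against 0 to 16.3 in C1, and the log2(FC) of 1.53 (SE 1.34) had an adjusted p-value of 0.99 in edgeR. Only cat 30 exceeded the C1 range in muscle. CT of cat 30 had 12.2 CPM, within the 3.66 to 16.8 of C1 CT.

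ENSFCAG00000004726 was at 112 CPM in the tumor of cat 7, 83.1 in cat 10, 56.7 in cat 27, 74.9 in cat 28 and 123 in cat 30. C1 tumors ranged from 1.26 to 21.9 CPM with a median of 9.20, and the log2(FC) was 3.11 (SE 0.38). All C3 tumors thus lay well above C1, with cat 30 highest again. AT of the C3 cats had 37.4 CPM in cat 10, 3.12 in cat 27 and 19.2 in cat 28 against 0 to 9.40 in C1. Cats 10 and 28 exceeded every C1 AT library and cat 27 did not, and the log2(FC) of 1.99 (SE 1.04) had an unadjusted p of 0.072 and an adjusted p-value of 1 in edgeR. In SM the 3 C3 libraries, at 8.55, 5.78 and 3.33 CPM, lay within the 0 to 32.7 of C1. C1 CT reached 7.39 to 119 CPM, so some normal connective tissue was at the level of the C3 tumors, and CT of cat 30 had 12.5.

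The C3-low genes were ENSFCAG00000026300 and ENSFCAG00000013900. ENSFCAG00000026300 was at 2.20 CPM in the tumor of cat 7, 7.94 in cat 10, 8.88 in cat 27, 9.36 in cat 28 and 2.36 in cat 30, against 11.6 to 240 in C1 with a median of 37.8. The log2(FC) was -3.33 (SE 0.72), and the highest C3 and lowest C1 tumor were separated by a narrow margin. The normal tissues did not separate, since AT had 5.83 to 37.4 CPM in C3 cats and 3.84 to 46.1 in C1 cats, and SM had 0 to 6.77 and 0.439 to 21.1.

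ENSFCAG00000013900 did not meet the minimum of 10 counts and is named, after its values were seen, because it is the other gene of the pair. It had 6 counts in the tumor of cat 7, 12 in cat 10, 10 in cat 27, 6 in cat 28 and 12 in cat 30, which is 0.484 to 0.983 CPM. C1 tumors had 1.75 to 304 CPM with a median of 16.5, and the log2(FC) was -6.08 (SE 1.31). The C3 tumors were close to the limit of counting, while the C1 tumors ranged from near that level to far above it. In normal tissue the gene was high in both groups, at 56.4 to 287 CPM in the 7 NT libraries of C3 cats and 48.3 to 381 in the 29 of C1 cats. In edgeR its log2(FC) was -0.53 (SE 0.44, adjusted p = 1) in AT and 0.32 (SE 0.38, adjusted p = 0.99) in SM. Within each C3 cat the tumor was thus far below the normal tissue beside it. A lower tumor value was not particular to C3. C1 tumors, too, lay below the matched normal libraries of their cats, with a single exception. The tumor of C1 cat 22 had 185 CPM and its CT 159. The distance varied among C1 cats. It was wide in cat 34, with 4.67 CPM for the tumor and 62.3 for SM, and narrow in cat 29, with 76.4 for the tumor and 83.2 for CT.

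**Figure D3:**
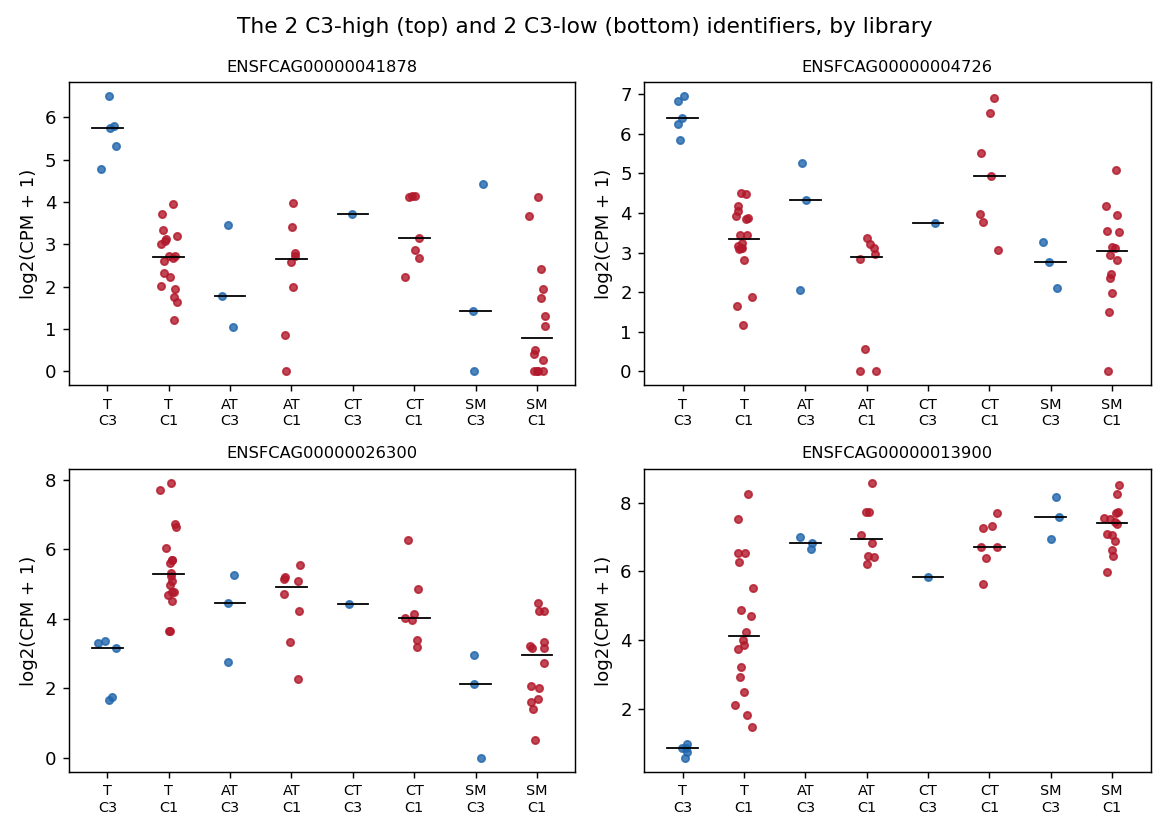
Log2(CPM + 1) of the 2 C3-high and 2 C3-low identifiers in each library by tissue and cluster of the cat (C3 blue, C1 red), with lines at the median. The clusters separate in T for all 4 identifiers, and in the normal tissues the points of C3 and C1 cats overlap or, with few C3 libraries, lie close together.

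The tissue in which the C3-high genes are found was examined next, in the NT libraries of the C1 cats. For 91 of the 131 genes (69.5%) the mean was highest in CT, for 31 (23.7%) in AT and for 9 (6.87%) in SM. Over all genes the shares were 35.2%, 24.7% and 40%. Of all genes over 1, including those that overlapped, 58.5% were highest in CT, compared with 37.4% of the genes under -1. The C3-high genes were on average higher in CT than in C1 tumors for 107 genes (81.7%, against 38.8% of all genes), with a median difference of 0.88 on the log2 scale, and in AT for 77 (58.8%, against 36.7%). They were higher in SM than in C1 tumors for 26 (19.8%, against 41.8%). Compared with C3 tumors, CT was higher for 7 genes (5.34%, against 36.3% of all genes), AT for 3 (2.29%, against 36.7%) and SM for 3 (2.29%, against 42.8%). The choice of genes for low values in C1 and high values in C3 tumors favors both directions, and among all genes over 1, whether or not the clusters overlapped, CT was above C1 tumors for 67.9%.

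Genes restricted to one normal tissue were used to ask whether the C3 tumor areas differed in the amount of that tissue. Their lists were set by values in NT of the C1 cats and not by the tumors. CT-restricted genes averaged 1.04 to 2.33 log2 CPM in the C3 tumors and 1.01 to 2.60 in the C1 tumors, and AT-restricted genes 0.13 to 0.57 and 0.07 to 1.32. Neither differed between the clusters by more than the spread of the tumors. Of the CT-restricted genes, 84 were tested in the tumors and 2 (2.38%, against 0.914% of all genes) were C3-high. None of the AT- or SM-restricted genes was C3-high. SM-restricted genes averaged -0.48 to 0.32 in the C3 tumors and -0.69 to 3.48 in the C1 tumors. Of 72 SM-restricted genes tested in the tumors, 43 (59.7%, against 12.1% of all genes) had a log2(FC) under -1, with a median of -1.71 where all genes had -0.11. For CT these were 24 of 84 (28.6%) with a median of -0.48, and for AT 15 of 64 (23.4%) with a median of -0.17. A log2(FC) over 1 was found for 15 CT-restricted genes (17.9%, against 8.38% of all genes), 6 AT-restricted genes (9.38%) and 4 SM-restricted genes (5.56%). Much of the difference of the SM-restricted genes rested on the C1 tumors of cats 5, 20 and 22. Without these 3 tumors, 21 of 58 SM-restricted genes (36.2%, against 11.6% of all genes) were under -1 and 11 (19%, against 8.62%) over 1, with a median of -0.40. Over all genes this left 1636 under -1, 3 C3-low and 151 C3-high genes.

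The same genes were then followed into the normal tissues of the same cats, which the clusters had not used. In AT no gene passed the adjusted p-value limit of 0.05 in edgeR among 12417 tested (0%), 260 (2.09%) had an unadjusted p under 0.05, and DESeq2 called 3. Of the C3-high genes, 111 were tested in AT. Their median log2(FC) was -0.09 where all genes had -0.03, and 48 of them (43.2%) were above 0, compared with 47% of all genes. A log2(FC) over 1 was found for 9 (8.11%, against 4.31%), and 1 had an unadjusted p under 0.05 in the higher direction, where 0.757% of all genes had one. Leaving out 1 of the C3 cats moved the median to values between -0.52, without cat 10, and 0.21, without cat 27. The libraries went in opposite directions. Above the median of C1 AT lay 75.7% of the C3-high genes in cat 10 and 65.8% in cat 28. For all genes these shares were 50.8% and 53.8%. In cat 27 it was 22.5%, against 55.6% of all genes. Adipose tissue beside C3 tumors thus gave no shift of these genes in 1 direction shared by the cats.

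In SM no gene passed the adjusted limit in edgeR among 13239 tested (0%), 616 (4.65%) had an unadjusted p under 0.05, and DESeq2 called 0. The 112 C3-high genes tested had a median log2(FC) of 0.96 where all genes had -0.03. Of these, 96 (85.7%) were above 0, compared with 47.3% of all genes, and 53 (47.3%) were above 1, compared with 8.4%. An unadjusted p under 0.05 in the higher direction was found for 15, where 2.83% of all genes had one, and the smallest adjusted p-value among them in edgeR was 0.99. Most of this shift rested on cat 30. Without it the median was -0.16 against -0.21 for all genes. Of 116 genes, 49 (42.2%, against 37.2%) were then above 0 and 14 (12.1%, against 7%) above 1. Without cat 7 or without cat 10 the median was 0.998 or 1.34. Above the median of C1 SM lay 54.5% of the C3-high genes in cat 7, against 36% of all genes. In cat 10 it was 42.9%, against 50%.

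**Figure D4:**
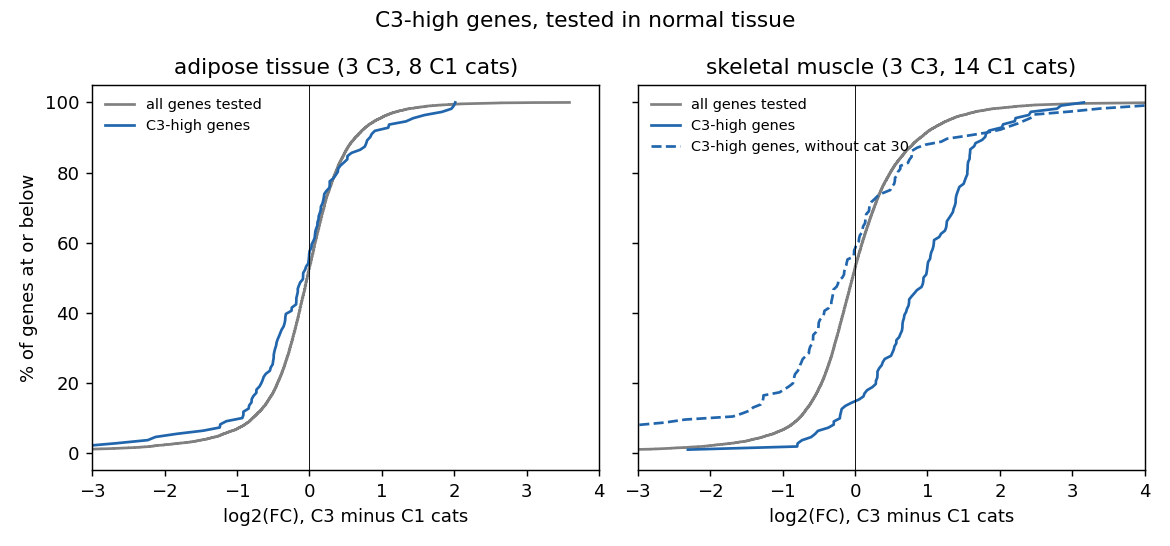
Cumulative share of genes (vertical axis, %) at or below each log2(FC) between C3 and C1 cats in AT (left) and SM (right), for all genes tested (grey) and for the C3-high genes (blue). In AT the curves nearly coincide, in SM the blue curve lies to the right with a median of 0.96, and without cat 30 (dashed) its median is -0.16. The axis is limited to -3 to 4.

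Library by library, the mean of the C3-high genes in AT was 3.48 in cat 10, 2.03 in cat 27 and 3.15 in cat 28, all within the 1.79 to 3.94 of C1 AT. CT of cat 30 had 3.89, within the 2.24 to 4.01 of C1 CT. SM had 1.94 in cat 7 and 1.83 in cat 10, within the 0.71 to 2.86 of C1 SM, and 3.63 in cat 30, which was above it. The SM library of cat 30 exceeded every C1 SM library for 52 of the 112 genes (46.4%, against 13.1% of all genes), while that of cat 10 did so for 2 (1.79%, against 3.34%) and that of cat 7 for 17 (15.2%, against 11.6%). CT of cat 30 exceeded every C1 CT library for 29 of 127 genes (22.8%, against 10% of all genes). Its CT-restricted genes averaged 3.61 log2 CPM, just below the 3.62 to 5.45 of C1 CT, and the part of this in its values was not tested. With 1 library, CT is given by size alone, with a median log2(FC) of 0.23 for the C3-high genes and -0.15 for all genes. Of the 127 genes, 78 (61.4%, against 41.7%) were above 0 and 25 (19.7%, against 8.14%) above 1. In AT the shares were 17.1% in cat 10, 1.8% in cat 27 and 8.11% in cat 28, against 7.6%, 7.19% and 9.09% of all genes.

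The SM library of cat 30 also differed in its tissue genes. Its SM-restricted genes averaged 8.81 log2 CPM, below the 9.78 to 11.2 of C1 SM, and its AT-restricted genes 2.75, above the -0.33 to 2.06 of C1 SM. Its CT-restricted genes, at 1.36, were at the upper end of the C1 range of -0.79 to 1.37. The C3-high genes, which were rarely highest in SM, were thus high in the SM library with the lowest level of muscle genes among these cats. The part of this composition in the shift was not tested.

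**Figure D5:**
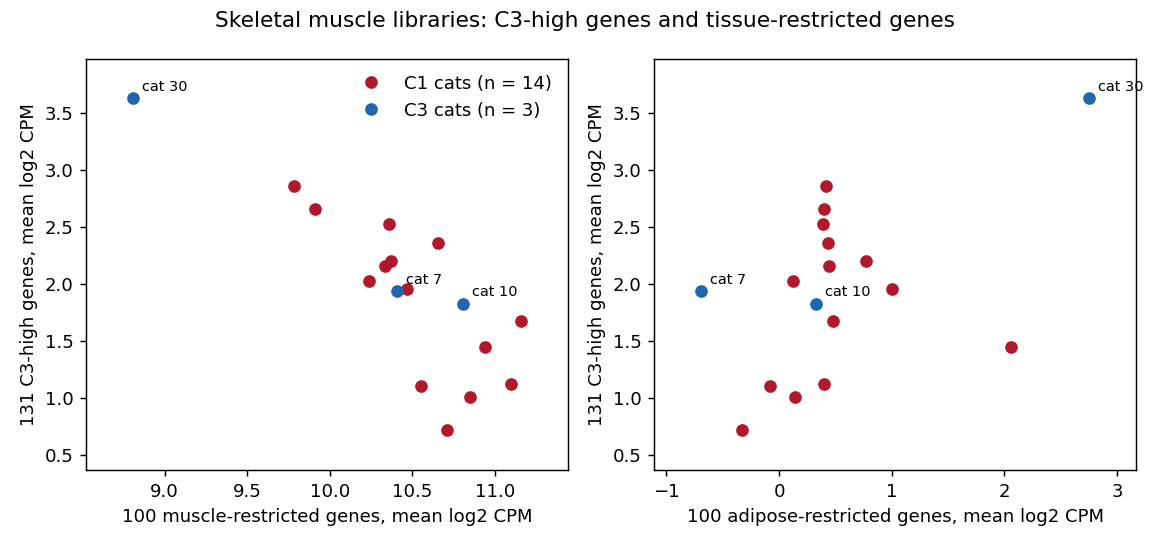
Mean log2 CPM of the 131 C3-high genes (vertical axes) in the SM libraries of 3 C3 (blue) and 14 C1 (red) cats against the mean log2 CPM of 100 SM-restricted (left) and 100 AT-restricted (right) genes. Cat 30 stands apart on both axes, at 8.81 and 2.75, while C3 cats 7 and 10 lie among the C1 cats for the C3-high genes.

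All NT libraries were also tested in 1 fit with the tissue as a term. Of 16422 genes, 7 (0.0426%) were higher in the C3 cats at an adjusted p-value under 0.05 in edgeR and 0 were lower, with 1197 (7.29%) at an unadjusted p under 0.05. None of the 7 was a C3-high gene. They had no count in 24 to 28 of the 29 C1 libraries, the highest count in a C3 library was 63, and only 2 had enough counts to be tested in the tumors. With the cat as a random block, 0 genes passed (limma voom, 988 at an unadjusted p under 0.05), and without cat 30 also 0 in edgeR (761 at an unadjusted p under 0.05). DESeq2 called 13, of which 1 was higher, and 0 of the 7 genes were among them. The 130 C3-high genes tested had a median of 0.54, against -0.04 for all genes. Of these, 106 (81.5%, against 46.2%) were above 0, 24 (18.5%, against 6.97%) were above 1, and 15 had an unadjusted p under 0.05 in the higher direction, where 2.8% of all genes had one. Without cat 30 this median was -0.10, against -0.12.

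Whether the cluster difference was unlike in AT and SM was tested as an interaction. No gene passed the adjusted limit in edgeR among 14232 tested, 602 (4.23%) had an unadjusted p under 0.05, and DESeq2 called 41, of which 1 was higher in AT than in SM. The C3-high genes had a median interaction of -1.16, where all genes had -0.01. Without cat 30 it was 0.04 where all genes had 0.20, and 51.2% of the C3-high genes were above 0, compared with 58.9% of all genes.

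Finally, the tumor was set against the normal tissue of its own cat, using the mean log2 CPM of the C3-high genes. In C3 the tumor was above AT by 1.61 in cat 10, 3.01 in cat 27 and 2.07 in cat 28, above CT by 1.65 in cat 30, and above SM by 3.15 in cat 7, 3.27 in cat 10 and 1.91 in cat 30. It was higher in each of the 7 pairs. In C1 the tumor was above AT in 4 of 8 cats (-1.93 to 0.70), above CT in 1 of 7 (-2.45 to 0.13) and above SM in 9 of 14 (-0.93 to 2.19). The AT and CT differences of the C3 cats all lay outside the C1 ranges, and those of SM overlapped them in cat 30 only. The choice of genes for high values in C3 tumors favors this direction.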

How the data were processed

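The deposited files, 1 for each of the 77 libraries, hold raw counts by Ensembl gene, as whole numbers that the authors had not normalized. Reads came from a stranded total RNA kit for low input. The study's methods name Trimmomatic, Kallisto and the feline build Felis_catus_9.0, while the submitters' processing notes name STAR and featureCounts. All files list 19587 identifiers. Tissue and cat were taken from the sample titles, clusters from the case numbers of the study. Where several libraries came from 1 cat, the case number gives the pairing, and the cat was added as a block in an alternative fit over all NT and of the interaction (limma voom), while the main fits had no block.

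Tests used edgeR 4.0.16 in R 4.3.3 (quasi-likelihood, TMM, filterByExpr by group, Benjamini-Hochberg, adjusted p under 0.05), with limma 3.58.1 and DESeq2 1.42.0 as alternatives. From the tumor fit only log2(FC) and SE are given. Each SE is the size of the log2(FC) divided by the square root of its quasi-likelihood F statistic. For the tumors, whose clusters were drawn on these values, the SE is a description and not a test. Log2 CPM used a prior count of 2. Libraries are 1 per cat and tissue, so their spread includes differences between cats. The tests were tried on simulated data, where each fit recovered only a part of the changed genes and also called some unchanged ones. At a simulated log2(FC) of 2, 37% of 100 changed genes were called in AT, 43% in SM and 43% over all NT. Unchanged genes were called 9 times in AT, 4 times in SM and 19 times over all NT. Each simulation held 100 genes changed by a log2(FC) of 2 and 100 by 4, many of them called. Its libraries were drawn as independent, though some NT libraries share a cat. These false calls are therefore no measure of how many of the 7 calls over all NT are false. Those 7 can still hold false ones.

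The members and lists were chosen with earlier results of these data known. A reference table of 39307 genes matched 0 identifiers, so the marker and pathway lists prepared for this comparison could not be tested, and sequences and positions are not given. In their place, the rule named the 2 identifiers with the largest log2(FC) in each direction among called genes with at least 10 counts in every C3 and C1 tumor. Only 1 C3-low gene met it.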

Additional observations from a re-analysis of the deposited data

Results flagged for a closer look

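Outlying libraries were looked for in 18 sets of values, where chance alone would mark 0.9. The tumor of C3 cat 7 had 13959 genes with a count, apart from the other C3 tumors, of which the nearest had 14897. In AT of the C1 cats the SM-restricted genes of cat 6 averaged 8.56 log2 CPM, where the next library had 1.63. In CT the same cat had 3.79, where the next had 0.53. The CT library of C1 cat 21 had 9698 genes with a count, where the next had 12847.

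Among the C2 tumors, which the comparison did not use, the mean of the C3-high genes reached 4.59 log2 CPM, above the highest C1 tumor at 3.20. It was above every C1 tumor in 4 of the 7 C2 tumors, the C2 mean was above the C1 mean for 127 of the 131 genes (96.9%, against 50.4% of all genes), and all C2 tumors lay above all C1 tumors for 4 (3.05%, against 0.502%). The C2 mean was above the C3 mean for 5 genes (3.82%, against 49.8%). C2 tumors were also high in genes restricted to AT, at 1.22 to 3.07, CT, at 1.89 to 3.74, and SM, at 1.14 to 3.60, and held 957697 to 7876394 counts, with a count for 15797 to 19092 genes where C1 tumors had one for 13228 to 15400. The part of this in their C3-high values was not tested.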

How the results depend on the processing

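Of 276 values under other settings, 251 kept their sign and moved by at most 1.5 times, for a count or share, or by less than the spread between libraries, for another value, 7 changed sign within that spread and 18 moved further. Many of the values were the tumor log2(FC) of the 4 named identifiers, which were chosen for their large differences between the tumors. A prior count of 0.5 or a log2(FC) limit of 2 could not change these, so the 251 overstate the stability. The AT median of the C3-high genes was among the 251 at -0.52 without cat 10. The sign changes were those of the C3-high median in AT (0.21 without cat 27) and over all NT (-0.10 without cat 30) and of the small AT- and CT-restricted differences between the tumors (0.01 and -0.03, moving to -0.08 and 0.19 with a prior count of 0.5). Without TMM the C3-high genes numbered 182, of which 127 were among the 131. Only female cats (3 C3 and 14 C1 tumors) gave 392 C3-high genes, with 129 of the 131, and 82 C3-low, where fewer tumors have to separate. With 1 cat left out, C3-high genes numbered 131 to 191 and C3-low 2 to 13, with 13 without cat 27, 8 without cat 7, 6 without cat 10 and 4 without each of cats 6, 8, 24 and 28. Genes under -1 numbered 1218 with a minimum of 10 counts and 3564 with no filter, and those over 1 numbered 1185 and 2245.

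In normal tissue DESeq2 called 3 genes in AT, 13 over all NT and 41 for the interaction, where edgeR called 0, 7 and 0. In SM, 2 were called with no filter and 2 without cat 30. With 1 C3 cat left out, the SM median of the C3-high genes ranged from -0.16 without cat 30 to 1.34 without cat 10. Without TMM it was 1.36, where all genes had 0.29. Over all NT, 3 genes were called with sex as a term, 0 with the replicate block and 0 to 9 with 1 C3 cat left out. The cause was not tested. Leaving out the tumors of cats 5, 20 and 22 or the AT and CT libraries of cat 6 was chosen after seeing the data. It moved the numbers of C3-high genes, C3-low genes and genes called in NT by at most 1.5 times. Without the 3 tumors, however, the SM-restricted genes under -1 went from 43 of 72 to 21 of 58. Those over 1 went from 4 to 11. The block changed no other call. AT and CT libraries and the SM library of cat 7 were shallow, and a gene without a count there can still be expressed.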
